A study of Mus musculus with 9 samples.

Results

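The genes described here were 10 members of the ETS family of transcription factors, namely Ehf, Elf3, Spdef, Etv1, Etv4, Etv5, Ets1, Ets2, Elk3 and Elf1. They were chosen by name and found through their Ensembl identifiers. All 10 were among the 47643 genes counted, and all 10 were among the 14105 genes with at least 100 reads over the libraries. The libraries were made from pancreatic ductal adenocarcinoma (PDAC) cells that were sorted by FACS from mouse tumors. The 6 KPF libraries came from GFP+Yap+ cells and the 3 KPYYF libraries from Tm+Yap- cells, and the question was which ETS genes differed between them. Mice of both groups carried Trp53 frt/+, a Flp driver under Pdx control (Pdx-Flp), and the alleles R26 FSF-CreER/Dual. KPYYF mice carried Yap flox/flox in addition, and mice of both groups received tamoxifen (TAM) in their diet. Flp recombines the frt-flanked allele and switches on EGFP in pancreatic cells, and tamoxifen lets CreER remove EGFP, turn on tdTomato (Tm) and, where Yap is floxed, delete it. Ages were not given in the labels. The groups thus differ at once in the floxed alleles, in Yap and in the reporter, effects that cannot be told apart, and the KPYYF cells came from tumors that had relapsed. Libraries are named by their mouse number, and 4504h and 4504s of KPF share a number, so these libraries may come from the same mouse.

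ETS proteins bind DNA through a conserved winged-helix domain that reads a GGAA core, and family members differ in where they are made and in which signals reach them. Ehf, Elf3 and Spdef are largely restricted to epithelia, where Ehf and Elf3 take part in epithelial differentiation and Spdef drives the maturation of mucus-secreting goblet cells. Etv1, Etv4 and Etv5 form the PEA3 group, whose transcription follows receptor tyrosine kinase and Ras-ERK signaling and which is known from branching epithelia. Ets1 and Ets2 are the founding members and are phosphorylated by ERK. Elk3 is a ternary complex factor that joins serum response factor (Srf) on DNA, and Elf1 is a broadly expressed activator best known from lymphoid cells.

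Among the 10 genes, the epithelial factors Ehf and Elf3 were lower in KPYYF libraries and the PEA3 factor Etv1 was higher, by a change of over 2-fold with p below 0.05. These limits are those of the study's methods, which do not say whether p was adjusted, and are applied here to edgeR's unadjusted p as the unadjusted rule. Spdef had a fold change of similar size that missed this rule. Etv4, Etv5, Ets1, Ets2, Elk3 and Elf1 missed it with smaller differences. After adjustment over all genes, 0 of the 10 genes had an adjusted p under 0.05 in edgeR's quasi-likelihood test. Of all genes tested, edgeR called 0.794% lower and 0.305% higher by the adjusted p. In the DESeq2 Wald test, 2 of the 10 were lower by the adjusted p (Ehf and Elf3), against 928 of all 14105 genes lower and 269 higher. In edgeR, 3 of the 10 had an unadjusted p under 0.05 without the 2-fold limit, against 2276 of the 14105 genes. By the unadjusted rule, 9.20% of all genes were lower, against 2 of the 10 ETS genes, and 4.20% were higher, against 1 of the 10. KPYYF lay below every KPF library in 1 of the 10 genes (5.18% of all genes) and above every KPF library in 1 (3.92% of all genes). The median log2 fold change of the 10 genes was 0.14, with 4 genes below 0 and 6 above, and that of all genes tested was -0.07, with 53.3% below 0. With 10 genes, counts of 1 to 3 are near what the shares of all genes give, and nothing is read from them for the family as a whole.

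Promoter sequences are shown for 3 of the genes with the largest differences, where the table had them. RefSeq (GRCm38.p6) gave promoters, 250 bases before to 50 after a transcription start, for 7 of the 10 genes, with 10 starts in all, and none for Ehf, Ets1 and Etv4. Shown are the promoters of Elf3 (chr1:135258423-135258722, minus strand), Spdef (chr17:27728902-27729201, minus strand) and the first start of Etv1 (chr12:38779832-38780131, plus strand). Each is written in the direction of its gene, 5′ to 3′. Capitals mark GGAATG or its reverse complement CATTCC, the core of sites bound by TEAD factors, through which Yap reaches DNA.
Elf3 promoter: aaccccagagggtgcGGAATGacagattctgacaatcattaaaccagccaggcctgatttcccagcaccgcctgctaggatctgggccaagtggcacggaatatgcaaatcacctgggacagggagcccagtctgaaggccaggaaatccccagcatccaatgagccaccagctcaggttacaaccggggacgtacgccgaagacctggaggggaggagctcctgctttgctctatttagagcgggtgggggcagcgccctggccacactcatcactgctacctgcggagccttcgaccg
Spdef promoter: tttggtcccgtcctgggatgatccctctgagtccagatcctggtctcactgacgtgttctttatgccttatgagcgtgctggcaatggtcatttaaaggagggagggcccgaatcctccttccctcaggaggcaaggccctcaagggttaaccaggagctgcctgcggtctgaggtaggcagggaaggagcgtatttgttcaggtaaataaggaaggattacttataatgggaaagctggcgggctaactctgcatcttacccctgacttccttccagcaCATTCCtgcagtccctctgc
Etv1 promoter: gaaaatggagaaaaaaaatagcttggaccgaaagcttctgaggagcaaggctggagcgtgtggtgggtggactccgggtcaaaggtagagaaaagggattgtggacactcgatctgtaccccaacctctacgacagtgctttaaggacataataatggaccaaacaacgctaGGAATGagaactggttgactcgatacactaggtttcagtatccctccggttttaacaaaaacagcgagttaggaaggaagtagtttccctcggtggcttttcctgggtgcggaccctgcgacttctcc
The letters GGAATG stood in 3 of the 10 promoters, these same 3, and on either strand in 14.7% of all 32851 RefSeq promoters of this length. In Elf3 they began at base -235 from the start site and in Etv1 at base -78, and in Spdef they lay on the reverse strand from base 31 of the transcript. Because GGAATG begins with GGAA, the same letters also contain an ETS core. A second word, AGGAAG, which is typical of PEA3-type ETS sites, stood in 4 of the 10 promoters and in 35.4% of all promoters. These 4 were those of Spdef, Elk3, the first start of Etv1 and the second start of Etv5. The first start of Etv1 held AGGAAG in 2 overlapping copies from bases -8 and -4. Spdef held it at base -40 and, on the reverse strand, at base 18. The second start of Etv1 (chr12:38783461-38783760) held neither GGAATG nor AGGAAG. Both words were chosen after the sequences had been seen, and a match describes letters and not binding.

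Ehf (ENSMUSG00000012350, chr2:103263433-103303278, minus strand) encodes an ETS factor of ductal and other simple epithelia. In reads per 1000000 reads on genes, with libraries scaled by TMM (CPM), it had 52.2, 64.8, 37.9, 82.6, 103.0 and 59.5 in KPF libraries 4269, 4435, 4504h, 4504s, 4515 and 4601. The KPYYF libraries 4449, 4891 and 4938 had 21.7, 3.94 and 3.07 CPM. Every KPYYF library lay below every KPF library, and within KPYYF, library 4449 stood well above 4891 and 4938. The difference in log2 was -2.80 (standard error, SE, 0.64, 95% confidence interval -4.19 to -1.41), a 6.96-fold lower level with an unadjusted p = 0.000767 and an adjusted p = 0.0577 in edgeR. The adjusted p was 0.000189 with DESeq2, 0.0128 with no filter on low counts and 0.00787 without KPYYF library 4449, where the log2 fold change was -4.25. In all 15 alternative fits, Ehf still passed the unadjusted rule. The study named Ehf among its epithelial factors from these same libraries, so its direction here is not independent evidence. In bulk libraries of sorted cells, fewer cells that express a gene and less of its RNA per cell cannot be told apart.

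Elf3 (ENSMUSG00000003051, chr1:135253575-135258568, minus strand) is an epithelium-specific ETS factor that also responds to inflammatory signals. It had 118.7, 127.4, 31.7, 61.1, 293.6 and 34.8 CPM in KPF libraries 4269, 4435, 4504h, 4504s, 4515 and 4601, and 43.5, 3.72 and 5.04 CPM in KPYYF libraries 4449, 4891 and 4938. The groups overlapped, because library 4449 exceeded KPF libraries 4504h and 4601, whereas 4891 and 4938 lay below every KPF library. The log2 fold change was -2.68 (SE 1.03, interval -4.96 to -0.39), with an unadjusted p = 0.0261 and an adjusted p = 0.230 in edgeR. DESeq2 gave an adjusted p = 0.0111. Without KPYYF library 4449 the log2 fold change was -4.66 (unadjusted p = 0.00124, edgeR adjusted p = 0.0565). Elf3 missed an unadjusted p of 0.05 without KPYYF library 4891 (unadjusted p = 0.0751), without 4938 (unadjusted p = 0.0780), with no filter on low counts and in the libraries with over 1000 Xist reads alone. The antisense gene Gm26642 overlaps the 3′ end of Elf3.

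Spdef (ENSMUSG00000024215, chr17:27714352-27728955, minus strand) drives secretory differentiation and had few reads in these cells. It had 6.42, 16.9, 0, 8.09, 12.5 and 13.4 CPM in KPF libraries 4269, 4435, 4504h, 4504s, 4515 and 4601, and 0.594, 0.437 and 2.74 CPM in KPYYF libraries 4449, 4891 and 4938. Library 4504h had no Spdef read, and the depth of this library put 3 reads at 0.307 CPM, so a lower level could have been missed. Apart from 4504h, every KPF library lay above every KPYYF library. In the fit, Spdef had a log2 fold change of -2.91 (SE 1.39, interval -5.90 to 0.08), with an unadjusted p = 0.0555 and an adjusted p = 0.325 in edgeR. Without KPF library 4504h the unadjusted p was 0.00678 (log2 fold change -3.17, edgeR adjusted p = 0.134). The other library of the same mouse number, 4504s, had 8.09 CPM, so the libraries with a shared number differed for this gene. Without KPYYF library 4938, which had the highest level of its group, the log2 fold change was -4.18 (unadjusted p = 0.0351). Spdef also passed the unadjusted rule with 4504h and 4504s summed (unadjusted p = 0.0124), with no filter on low counts (0.0303) and with DESeq2 (0.0125), 5 of the 15 alternative fits in all.

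The 3 epithelial factors did not follow the same order within KPYYF. Library 4449 held 6.20 times the mean Ehf level and 9.92 times the mean Elf3 level of 4891 and 4938, but 0.374 times their mean Spdef level. The Spdef value rests on only 5, 4 and 25 reads in 4449, 4891 and 4938. For Spdef, library 4449 lay below 4938 alone (0.594 CPM, against 0.437 CPM in 4891 and 2.74 CPM in 4938). Summed, Ehf, Elf3 and Spdef reached 69.6 to 409.2 CPM in KPF libraries, and 65.8, 8.09 and 10.9 CPM in KPYYF libraries 4449, 4891 and 4938. Library 4449 also held more of the list of 15 epithelial genes, with a sum of 2035 CPM against 576 and 691.3 CPM in 4891 and 4938 and 3249 to 11370 CPM in KPF. Its 10 acinar enzyme genes, which mark digestive enzyme-secreting cells, summed to 6635 CPM against 91.0 and 77.4 CPM in 4891 and 4938. Acinar genes were also high in KPF library 4504s, at 21490 CPM, and their part in the levels of Ehf and Elf3 was not tested. Without 4504s, the log2 fold changes were -2.72 for Ehf and -2.80 for Elf3.

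**Figure D1:**
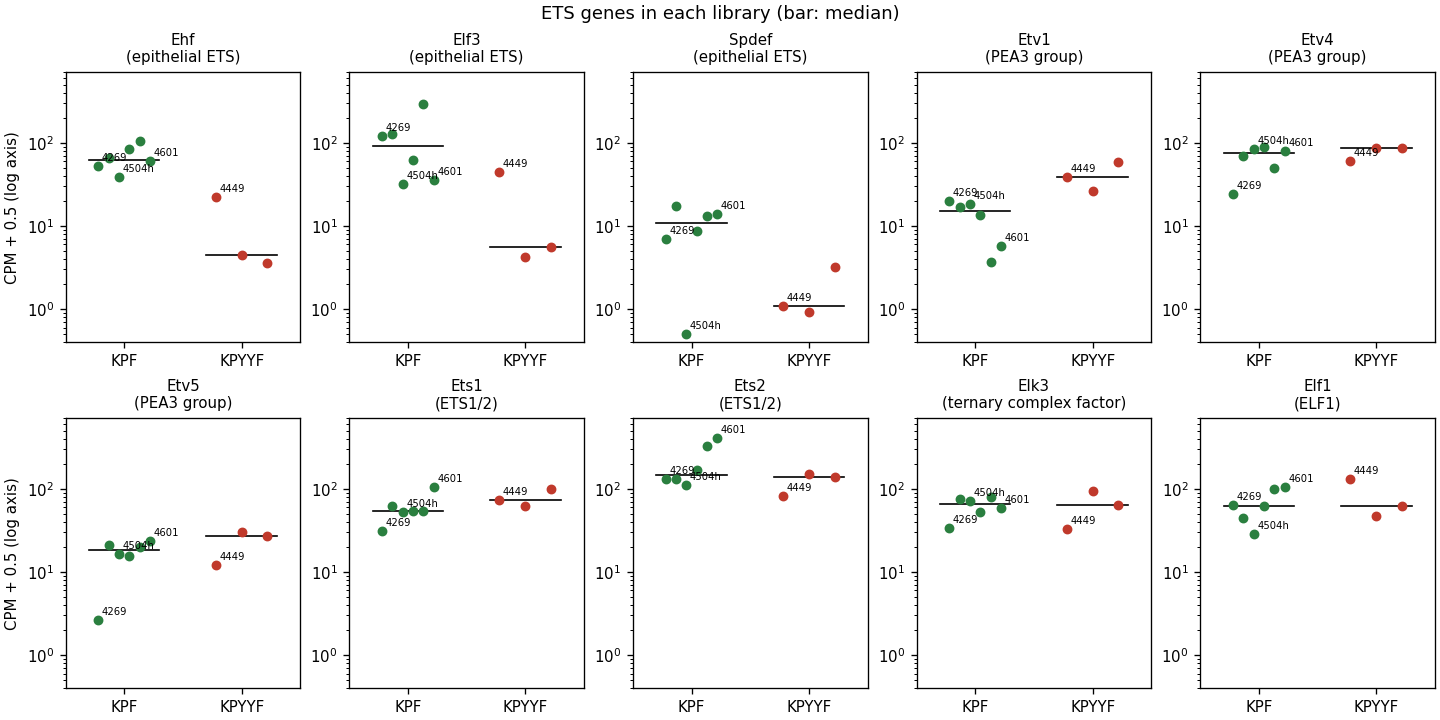
Level of each of the 10 ETS genes in 6 KPF libraries (green) and 3 KPYYF libraries (red), as CPM plus 0.5 on a log axis, with a bar at the group median and the numbers of libraries 4269, 4504h, 4601 and 4449 beside their points. Ehf and Elf3 are lowest in 2 KPYYF libraries (3.07 to 5.04 CPM) with 4449 above them, Etv1 is higher in all 3 KPYYF libraries, and the other panels overlap, Spdef through library 4504h alone.

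Etv1 (ENSMUSG00000004151, chr12:38779380-38870484, plus strand) was the ETS gene with the highest log2 fold change among the 10. It had 19.6, 16.3, 18.0, 13.2, 3.21 and 5.25 CPM in KPF libraries 4269, 4435, 4504h, 4504s, 4515 and 4601, and 38.4, 25.5 and 57.9 CPM in KPYYF libraries 4449, 4891 and 4938. Every KPYYF library lay above every KPF library, with 4891 and 4269 as the nearest pair. This was a log2 fold change of 1.69 (SE 0.55, interval 0.49 to 2.88), a 3.22-fold higher level with an unadjusted p = 0.00922 and an adjusted p = 0.155 in edgeR. Without KPYYF library 4938 it was 1.34 and missed the unadjusted threshold (unadjusted p = 0.0628). It passed in the other 14 alternative fits, and the lowest edgeR or DESeq2 adjusted p in any of the 15 was 0.0605. Within the 6 libraries with over 1000 Xist reads (KPF 4435, 4504h and 4504s and all 3 KPYYF), the log2 fold change was 1.37 (unadjusted p = 0.0162). The KPF libraries with the lowest Etv1, 4515 and 4601, were both outside this set.

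Etv4 (ENSMUSG00000017724) and Etv5 (ENSMUSG00000013089), the closest relatives of Etv1, did not differ between groups beyond their spread. Etv4 had 23.7, 68.9, 83.7, 88.1, 49.7 and 79.7 CPM in KPF libraries 4269, 4435, 4504h, 4504s, 4515 and 4601, and 60.2, 84.9 and 86.8 CPM in KPYYF libraries 4449, 4891 and 4938. The KPYYF values lay within the upper part of the KPF range, and the log2 fold change was 0.24 (SE 0.38, interval -0.59 to 1.06, edgeR adjusted p = 0.831). Etv5 had 2.14, 20.4, 16.1, 15.2, 19.7 and 22.9 CPM in the same KPF libraries, and 11.5, 29.6 and 26.3 CPM in the KPYYF libraries. Its log2 fold change was 0.49 (SE 0.61, interval -0.83 to 1.81, edgeR adjusted p = 0.764). Both genes were lowest in KPF library 4269, which had the highest Etv1 of its group. The log2 ratio of Etv1 to Etv4 within a library (each read count plus 0.5) ran from -3.93 to -0.28 in KPF and from -1.73 to -0.58 in KPYYF, so that the groups overlapped through library 4269. The interval of Etv4 ends below the 1.69 of Etv1, while that of Etv5 includes it. In a two-sided exact permutation test over the 9 libraries, the difference in mean ratio between groups did not pass for Etv1 to Etv4 (difference 1.53, exact p = 0.107, adjusted over 4 ratios 0.143) or for Etv1 to Etv5 (1.20, exact p = 0.405, adjusted 0.405).

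Ets1 (ENSMUSG00000032035, chr9:32636221-32757820, plus strand), a factor of mesenchymal, endothelial and lymphoid cells as well as of invasive tumor cells, had 30.2, 62.0, 52.2, 53.8, 53.5 and 104.1 CPM in KPF libraries 4269, 4435, 4504h, 4504s, 4515 and 4601. In KPYYF libraries 4449, 4891 and 4938 it had 72.3, 61.0 and 97.9 CPM. Library 4601 was the highest of all 9, and 4269 the lowest. The log2 fold change was 0.38 (SE 0.36, interval -0.40 to 1.16, edgeR adjusted p = 0.674). Without KPF library 4601, which carries a large immune marker signal, it was 0.64 (unadjusted p = 0.0771, edgeR adjusted p = 0.387). Ets1 thus remained on the same side of the threshold in every alternative fit.

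Ets2 (ENSMUSG00000022895, chr16:95702075-95721051, plus strand) had 130.1, 130.0, 110.5, 165.4, 323.8 and 405.8 CPM in KPF libraries 4269, 4435, 4504h, 4504s, 4515 and 4601, and 80.9, 151.3 and 137.5 CPM in KPYYF libraries 4449, 4891 and 4938. Within KPF, 4515 and 4601 stood above the other libraries, which overlapped KPYYF. For Ets2 the log2 fold change came to -0.77 (SE 0.45, interval -1.74 to 0.19, edgeR adjusted p = 0.431). It was -0.12 in the 6 libraries with over 1000 Xist reads, which leave out 4269, 4515 and 4601, and -0.46 without 4601 alone.

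Elk3 (ENSMUSG00000008398, chr10:93247414-93311135, minus strand), the Srf partner, had 33.1, 74.6, 71.4, 51.7, 78.4 and 58.0 CPM in KPF libraries 4269, 4435, 4504h, 4504s, 4515 and 4601, and 32.1, 93.7 and 63.7 CPM in KPYYF libraries 4449, 4891 and 4938. Its lowest and its highest value both came from KPYYF, and the log2 fold change of 0.05 (SE 0.38, interval -0.78 to 0.87, edgeR adjusted p = 0.974) left the direction unsettled. It was -0.08 without KPF library 4269 and -0.35 without KPYYF library 4891. The 3′ end of Elk3 overlaps Cdk17 on the opposite strand, and how the counting treated strand was not stated.

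Elf1 (ENSMUSG00000036461, chr14:79481194-79582494, plus strand) had 62.7, 43.5, 27.9, 61.9, 100.1 and 103.8 CPM in KPF libraries 4269, 4435, 4504h, 4504s, 4515 and 4601, and 130.0, 46.0 and 61.5 CPM in KPYYF libraries 4449, 4891 and 4938. A single KPYYF library, 4449, was the highest of all 9, and 4891 and 4938 lay inside the KPF range. Elf1 had a log2 fold change of 0.25 (SE 0.44, interval -0.71 to 1.21, edgeR adjusted p = 0.848), and it turned to -0.31 without library 4449.

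**Figure D2:**
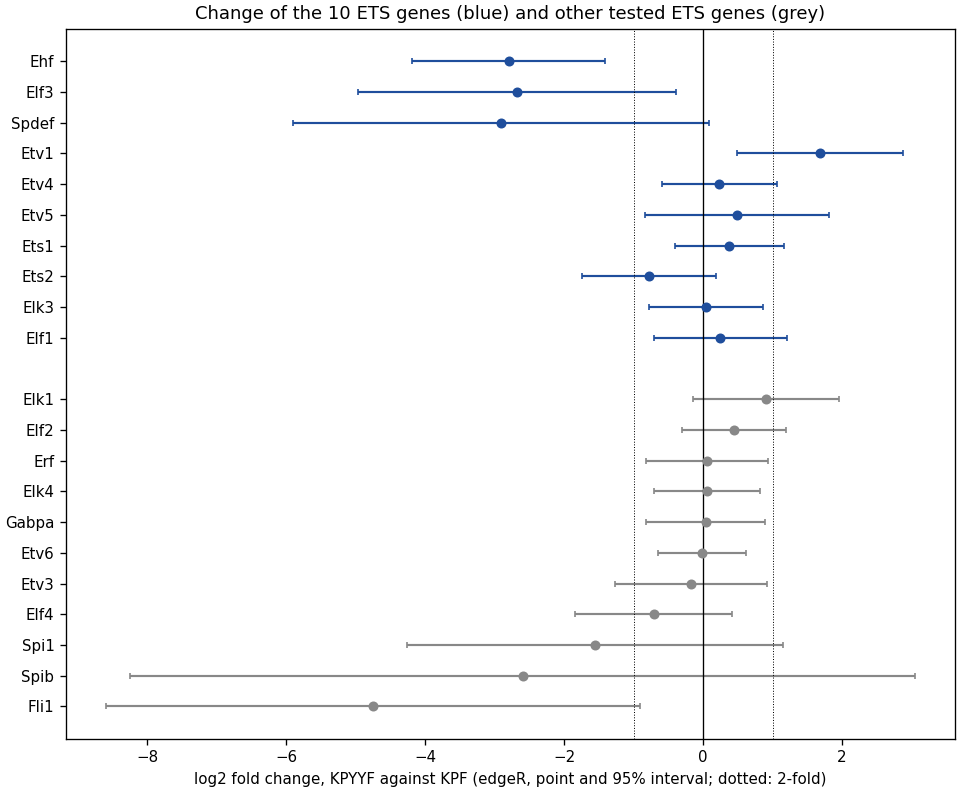
Log2 fold change of KPYYF against KPF from edgeR for the 10 ETS genes (blue) and the 11 other tested ETS genes (grey), with bars for the 95% confidence interval and dotted lines at a 2-fold change. The intervals of Ehf (-4.19 to -1.41), Elf3 (-4.96 to -0.39), Fli1 and, on the other side, Etv1 (0.49 to 2.88) leave out 0, and the intervals of the other genes include it.

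A ratio within a library does not depend on the scaling of libraries. The log2 ratio of Ehf to Ets1 (each read count plus 0.5) was 0.79, 0.06, -0.46, 0.62, 0.95 and -0.81 in KPF libraries 4269, 4435, 4504h, 4504s, 4515 and 4601, and -1.73, -3.94 and -4.97 in KPYYF libraries 4449, 4891 and 4938. The groups did not overlap, and their means were 0.19 and -3.55. The log2 ratio of Elf3 to Ets1 ran from -1.58 to 2.46 in KPF and from -4.26 to -0.73 in KPYYF, and overlapped through 4449. Their exact permutation p values were 0.0119, the smallest that the test can give with 6 and 3 libraries, and 0.0357 (adjusted over 4 ratios 0.0476 and 0.0714), but the pairs were chosen after the values had been seen, so these p values support nothing.

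The other genes of the family were a list of 17, of which 11 had enough reads to be tested, and 0 of the 11 had an adjusted p under 0.05 in edgeR. By the unadjusted rule, 1 of the 11 was lower (Fli1) and 0 were higher, against 9.20% and 4.20% of all genes. A count of 1 is near these shares. Fli1, an endothelial and blood cell factor that lies 93.4 kb from Ets1 on chromosome 9, had 7.88, 8.20, 1.84, 8.09, 0 and 36.7 CPM in KPF libraries 4269, 4435, 4504h, 4504s, 4515 and 4601, and 0.356, 0 and 0.767 CPM in KPYYF libraries 4449, 4891 and 4938. The groups overlapped through KPF library 4515. In the fit, Fli1 had a log2 fold change of -4.75 (SE 1.78, unadjusted p = 0.0191, edgeR adjusted p = 0.204), and without 4601 it was -3.72 and missed the unadjusted threshold (unadjusted p = 0.0736). It also missed it without KPYYF library 4449 or 4891, with unadjusted p = 0.0553 and 0.0529, and in the libraries with over 1000 Xist reads alone (unadjusted p = 0.0517), and DESeq2 gave an adjusted p = 0.0121.

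Among ETS genes known from blood cells, Spi1, Spib and Elf4 were highest in the same library, KPF 4601. Spi1, which directs myeloid and B cell fates, had 90.4 CPM in KPF library 4601, 1.77 to 12.5 CPM in the other KPF libraries and 3.72 to 10.6 CPM in KPYYF. Spib, a factor of B cells and plasmacytoid dendritic cells, had 28.1 CPM in 4601 and at most 0.228 CPM in any other KPF library, against 0, 0.219 and 2.08 CPM in KPYYF. Elf4, a factor of cytotoxic lymphocytes, was also highest in 4601, with 93.0 CPM against 25.0 to 53.5 CPM in the other KPF libraries and 10.3 to 47.2 CPM in KPYYF. The log2 fold change of Spi1 was -1.56 with all libraries and 0.27 without 4601, so its direction rested on that library. The list of 14 immune cell markers summed to 10210 CPM in 4601, 514.3 to 1628 CPM in the other KPF libraries and 452.6 to 820.7 CPM in KPYYF. All 11 of its tested markers had a log2 fold change below 0 (median -2.18), where for all genes 53.3% were below 0. The pan-leukocyte marker Ptprc had 399.5 CPM in 4601 and 50.7 to 116.3 CPM elsewhere. The T cell marker Cd3e had 6.27 CPM in 4601, 1.315 CPM in KPYYF library 4938 and 0 in every other library. Cd3g, a second T cell marker, had 4 reads each in KPF libraries 4269 and 4601 and 0 elsewhere.

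Ubiquitous family members did not pass the unadjusted rule in the fit of all libraries. Elk1, a ternary complex factor like Elk3, had the highest log2 fold change of the list, 0.91 (SE 0.49, unadjusted p = 0.0850). It had 60.0 and 60.9 CPM in KPYYF libraries 4891 and 4938 but 20.1 CPM in 4449, against 11.5 to 47.5 CPM in KPF. It passed the unadjusted rule without KPF library 4435 (log2 fold change 1.19, unadjusted p = 0.0280) and without KPYYF library 4449 (1.27, unadjusted p = 0.0223). Elf2, Elk4, the repressors Erf, Etv3 and Etv6, and the metabolic gene regulator Gabpa had log2 fold changes between -0.17 and 0.44, and without KPYYF library 4449 that of Etv3 was -1.10 (unadjusted p = 0.0467). Erg, which lies 115.5 kb from Ets2 with 0 coding genes between, reached at most 1.14 CPM in KPF and 1.53 CPM in KPYYF. Elf5, an epithelial relative that lies 108.4 kb from Ehf with 0 coding genes between, reached at most 0.114 CPM. Elf5 thus stayed below the 0.292 to 0.437 CPM that 3 reads gave in a library, and both neighbors had too few reads to be tested. Fev and Spic did not exceed 0.437 CPM, and Etv2 and the pseudogene Etv3l had no reads.

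**Figure D3:**
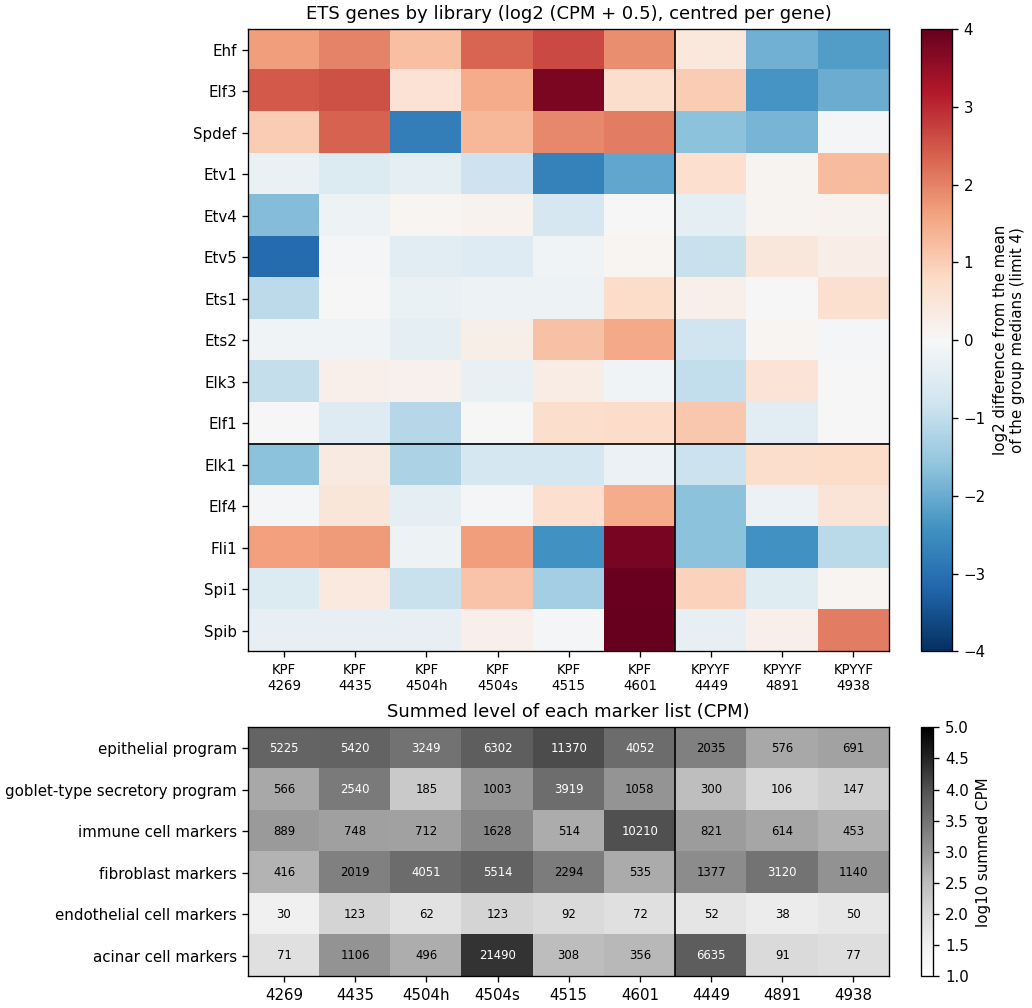
Upper panel, log2 of CPM plus 0.5 for the 10 ETS genes and 5 others in each library, each gene centred on the mean of its group medians (red higher, blue lower, limited at 4). Lower panel, summed CPM of 6 marker lists in the same libraries. Fli1, Spi1 and Spib are darkest in KPF library 4601, where immune markers reach 10210 CPM, and among KPYYF libraries Ehf and Elf3 are highest in 4449, which has 2035 CPM of epithelial genes.

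Genes that report on ERK signaling, which acts upstream of the PEA3 group, Ets1 and Ets2, moved in both directions. Of 17 tested, 11 had a log2 fold change above 0 and 6 below (median 0.32), and 0 had an adjusted p under 0.05 in edgeR. By the unadjusted rule 2 of the 17 were higher and 2 lower, against 4.20% and 9.20% of all genes. Those higher were the feedback inhibitors Spry2 (log2 fold change 1.19) and Spred1 (1.20), and Spry2 had 49.7 to 89.1 CPM in KPYYF and 11.3 to 40.4 CPM in KPF, without overlap. Those lower were the ephrin receptors Epha2 (-2.03) and Epha4 (-2.01). Epha2 had 3.72 to 21.8 CPM in KPYYF and 28.0 to 105.8 CPM in KPF, also without overlap. Dusp6, an ERK phosphatase often used as a readout of ERK, had a log2 fold change of 0.11 (SE 0.35, edgeR adjusted p = 0.927) and was named after its values were seen.

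Srf, its coactivators and the ternary complex factors Elk1, Elk3 and Elk4 were a list of 7 with 6 tested. In this list 0 passed the unadjusted rule or the adjusted p in edgeR. Elk1, Elk3 and Elk4 are the ETS genes already described, so the list is not separate from them. Srf had a log2 fold change of 0.23, and Mrtfa, its actin-regulated coactivator, had the lowest of the list, -0.83 (unadjusted p = 0.0223), which is less than 2-fold. Mrtfa had 26.0 to 40.7 CPM in KPYYF and 40.2 to 66.8 CPM in KPF, and the ranges met at KPF library 4269. Myocd, the muscle coactivator, had no reads.

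Ehf and Elf3 are known to act in the epithelial program. All 15 epithelial genes had a log2 fold change below 0 (median -2.33, against -0.07 for all genes), where for all genes 53.3% were below 0, and 7 passed the unadjusted rule, against 9.20% of all genes lower. The adhesion molecule Cdh1 and the keratin Krt18 passed the adjusted p in edgeR, against 0.794% of all genes lower. Cdh1 had 94.0 to 245.4 CPM in KPYYF and 333.1 to 2105 CPM in KPF (log2 fold change -2.92, SE 0.55, edgeR adjusted p = 0.0351), and Krt18 had 243.0 to 461.2 and 1278 to 2365 CPM (log2 fold change -2.49, edgeR adjusted p = 0.0141). The lowest of the list was the epithelial regulator Grhl2, with 0 to 0.109 CPM in KPYYF and 1.12 to 8.20 CPM in KPF, and the highest was the claudin Cldn3, with a log2 fold change of -0.30. Both groups thus kept reads of defining epithelial markers.

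The goblet-type secretory genes, the known setting of Spdef, were 14, of which 12 were tested. All 12 had a log2 fold change below 0 (median -2.46), and 7 passed the unadjusted rule, where 9.20% of all genes were lower. By the adjusted p, 2 of the 12 were lower, against 0.794% of all genes. The membrane mucin Muc1 and the mucin glycosyltransferase Gcnt3 passed the adjusted p in edgeR, with log2 fold changes of -4.11 (SE 0.82, edgeR adjusted p = 0.0422) and -3.90 (SE 0.66, edgeR adjusted p = 0.0229). The secreted mucin Muc5ac had at most 0.237 CPM in KPYYF and 0.102 to 64.3 CPM in KPF, and KPF library 4504h, the one without Spdef reads, held the lowest KPF level. That library also had the lowest KPF sum of this list, 185.4 CPM against 566.4 to 3919 CPM in the other KPF libraries. In KPYYF the sums were 300.3, 106.4 and 147.2 CPM in 4449, 4891 and 4938. Library 4504h was also the lowest of KPF for the summed epithelial list (3249 CPM), Ehf (37.9 CPM) and Elf3 (31.7 CPM). Its low goblet-type level was thus not particular to Spdef. The smallest difference of the goblet-type list was that of Galnt12, with a log2 fold change of -0.11.

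Mesenchymal genes and matrix proteases, among which Ets1 and the PEA3 group have known targets, showed no common direction, with 7 of 14 below 0 and 7 above (median 0.06). By the unadjusted rule 1 was higher, the stromelysin Mmp3, and 1 was lower, against 4.20% and 9.20% of all genes. An adjusted p under 0.05 in edgeR was reached by 0. Mmp3 had 6.41, 429.9 and 34.0 CPM in KPYYF libraries 4449, 4891 and 4938 and 0.194 to 17.3 CPM in KPF. The collagenase Mmp13 had the lowest log2 fold change, -1.36 (unadjusted p = 0.381). Fibroblast markers summed to 415.5 to 5514 CPM in KPF and 1140 to 3120 CPM in KPYYF, with Col1a1 present in all 9 libraries (56.7 to 1736 CPM). By the unadjusted rule, 2 of the 10 fibroblast markers were higher and 1 lower, against 4.20% and 9.20% of all genes. Pdgfra, a receptor of mesenchymal cells, had 24.3 to 284.5 CPM in KPYYF and 4.38 to 42.0 CPM in KPF (log2 fold change 2.90, unadjusted p = 0.00317), and the matrix gene Dpt had 27.2 to 62.8 and 1.77 to 29.2 CPM (2.04, unadjusted p = 0.00936). The contractile gene Acta2 was lower (-2.65, unadjusted p = 0.00869), and Col1a1 had -1.46 (unadjusted p = 0.140). The part of fibroblast markers in the levels of Ets1 and Etv1 was not tested. Endothelial markers were low, with sums of 30.0 to 122.9 CPM in KPF and 38.2 to 52.5 CPM in KPYYF. Of 9 tested, 7 had a log2 fold change below 0, where for all genes 53.3% were below 0. By the unadjusted rule 2 of the 9 were lower, against 9.20% of all genes. Kdr had 6.91 to 22.2 CPM in KPF and 0, 4.37 and 0.110 CPM in KPYYF libraries 4449, 4891 and 4938, without overlap (log2 fold change -3.40, unadjusted p = 0.0146). Vwf had at most 0.219 CPM in KPYYF and 0 to 12.1 CPM in KPF (unadjusted p = 0.0112). The defining markers Pecam1 and Cdh5 had log2 fold changes of -1.46 and 0.06 and did not pass. The part of endothelial markers in the level of Fli1 was not tested.

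**Figure D4:**
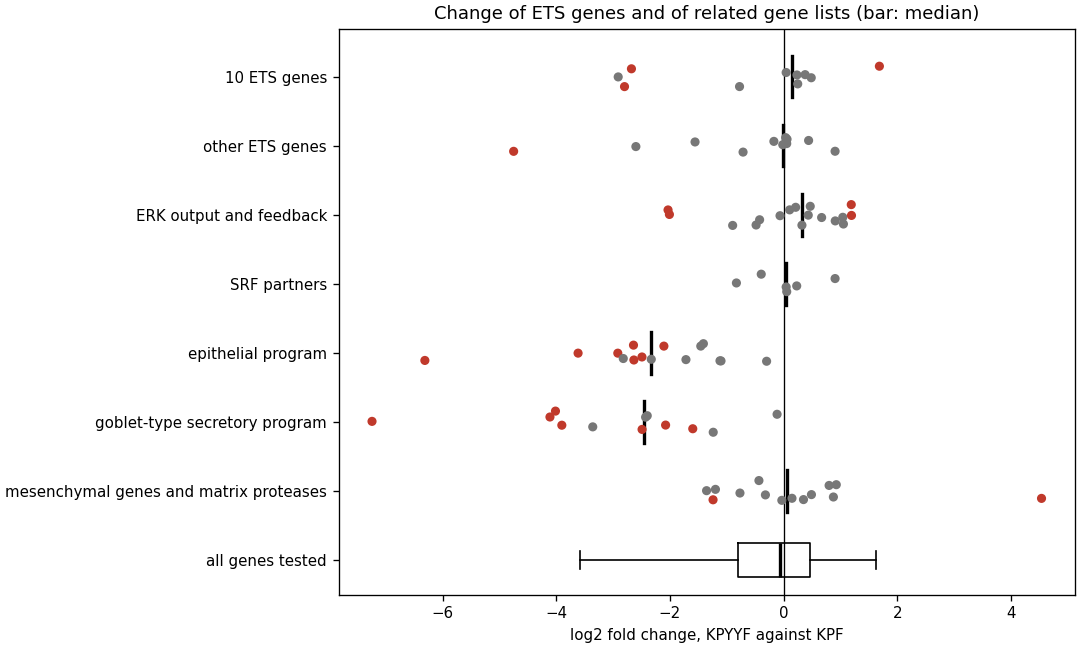
Log2 fold change of KPYYF against KPF for each tested gene of 7 lists, with a black bar at the list median and red points for genes that passed the unadjusted rule. The box shows all 14105 genes tested, with whiskers from the 5th to the 95th percentile. The 10 ETS genes spread from -2.91 to 1.69 around a median of 0.14, whereas the epithelial and goblet-type lists lie below 0 in every tested gene.

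For each of the 9 ETS genes with a mean of at least 10 CPM, the genes with the most similar course over the 9 libraries were sought among 8900 genes of that level, by the root mean square (RMS) difference of log2 CPM after centring each gene. Ehf ran closest to the claudin Cldn2 and the ductal keratins Krt7 and Krt19, with RMS differences of 0.292, 0.305 and 0.321, where the spread of Ehf itself was 1.73. Elf3 ran closest to the polarity genes Crb3 (0.518) and Patj (0.562) and to the lipid carrier Stard10 (0.575), with a spread of 1.94. The genes nearest to Etv1 were the mitotic checkpoint kinase Bub1b (0.426), the collagen-modifying Crtap (0.447) and the mesenchymal transcription factor Twist1 (0.452), with a spread of 1.20. These 3 genes had log2 fold changes of 1.36, 1.26 and 1.13 and edgeR adjusted p = 0.178, 0.270 and 0.415. For the genes that differed less between groups, the neighbors were of mixed kinds, namely Rgl2, Rbm10 and Rhoa for Ets1, Ikbkb and Cep120 for Ets2, and Nelfe, Fundc2 and Eif4a3 for Etv4. Etv5 was nearest to Rfng, Ubac2 and Trp53rka, Elk3 to Tatdn2, Nploc4 and Ndufb11, and Elf1 to Uimc1, Sgf29 and Ccdc174. The likeness is a description over 9 libraries.

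Reads on genes numbered 8116539 to 9635514 per library, which limits counting error but not the spread between mice, and the common biological coefficient of variation was 0.825. Yap1, the gene deleted in KPYYF cells, had 0.712 to 7.12 CPM in KPYYF and 41.8 to 150.9 CPM in KPF (log2 fold change -4.79, SE 0.72, edgeR adjusted p = 0.0159), without overlap. No library went against its label in this check.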

How the data were processed

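RNA of FACS-sorted PDAC cells (6 KPF and 3 KPYYF libraries) was read from 3′ end libraries (Lexogen QuantSeq Forward, per the labels). As deposited by the authors, each file holds raw counts per Ensembl gene of a single library, without normalization. The submitters' processing notes name STAR, HTSeq and mm10 without versions, and the annotation and strand setting are not given in the sources used here. The methods describe BeadChip hybridization, whereas the files hold whole-number read counts with a different total in each library, and these were used as counts. Reads without a unique alignment made up 43.9 to 53.4% and reads on no feature 8.63 to 16.0% of each file.

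Of 47643 genes, 47224 were matched to a GENCODE M21 symbol. Genes with at least 100 counts in all were kept (14105), as in the methods, and tested with edgeR 4.0.16 (TMM, robust quasi-likelihood, R 4.3.3) without covariates, two-sided, with Benjamini-Hochberg adjustment over all genes and a threshold of 0.05. Standard errors (SE) were derived by dividing the log2 fold change by the root of F. CPM used TMM-scaled library sizes, and 3 counts corresponded to 0.292 to 0.437 CPM, which covers counting error only. Libraries are named by mouse number, and p values measure the spread between these libraries.

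Alternatives were DESeq2 1.42.0, RLE and upper quartile scaling, no count filter, 4504h and 4504s summed, libraries with over 1000 Xist reads alone, and each library left out. The fit was tested on simulated counts. The members and all lists were chosen with earlier results of these data known. Named genes were all ETS genes, and of other lists those with an adjusted p under 0.05, the extremes and the defining cell markers, with Yap1 as check of the labels and the 3 nearest genes of each ETS gene with a mean of at least 10 CPM, predicted symbols left out. Spry2, Epha4, Dusp6, Srf, Myocd, Cd3e, Cd3g, Kdr and Dpt fall outside this rule and were named after their values were seen. An allele shared by the groups and some single genes are not reported here. Promoters are from RefSeq. Figures were drawn with matplotlib 3.10.9.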

Additional observations from a re-analysis of the deposited data

Results flagged for a closer look

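Among 21 tested ETS genes, Dixon's test on the 6 KPF libraries marked 3. The test was run on log2 CPM with a prior count of 2, and its ratio is the gap to the nearest library as a share of the group's range on that scale. Chance marks about 1 in 20 groups. For Etv5, KPF library 4269 was low (2.14 CPM against 15.2 to 22.9 CPM in the other KPF libraries, ratio 0.821). For Spdef, KPF library 4504h was at 0 against 6.42 to 16.9 CPM (ratio 0.782). For Spib, KPF library 4601 was high (28.1 CPM against 0 to 0.228 CPM, ratio 0.854), in the library with 10210 CPM of immune markers. The 3 values came from 3 different libraries.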

How the results depend on the processing

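Over 15 alternative fits of 21 ETS genes, 278 of 313 values kept their direction and their side of the adjusted threshold, 5 newly passed it and 30 changed sign. With DESeq2, 928 genes were lower and 269 higher by the adjusted p, and 2 of the 10 ETS genes were lower (Ehf and Elf3). With no count filter, 219 genes were lower and 88 higher, 1204 were higher by the unadjusted rule, and 1 ETS gene was lower by the adjusted p. With 4504h and 4504s summed, 25 genes were higher by the adjusted p. In libraries with over 1000 Xist reads alone, 31 were lower and 6 higher. There 1 of the 10 ETS genes was lower by the unadjusted rule, against 887 of 13077 genes. The main counts were 112 lower, 43 higher and, by the unadjusted rule, 592 higher, and the cause of these shifts was not tested.

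Leaving out each library, genes called lower ranged from 13 (without KPYYF 4938) to 198 (without KPYYF 4449) and genes called higher from 6 (without KPF 4435) to 75 (without KPYYF 4449). Of the 10 ETS genes, 0 to 1 were lower by the adjusted p, and by the unadjusted rule 1 (without KPYYF 4891) to 3 (without KPF 4504h) were lower and 0 (without KPYYF 4938) to 1 higher. By the same rule, 1227 of 13850 genes were lower without KPYYF 4891 and 1264 of 13824 without KPF 4504h. Without KPYYF 4938, 538 of 13890 genes were higher.

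In the libraries with over 1000 Xist reads, Elk3 and Etv4 had log2 fold changes of -0.0397 and -0.0390, Etv3 0.0704 and Etv6 0.0565. Etv6 had 0.0047 with DESeq2, 0.0044 with RLE, 0.0044 with upper quartile scaling and 0.0253 with 4504h and 4504s summed. With each library left out, Elf1 ran from -0.31 to 0.52, Elk3 from -0.35 to 0.36, Elk4 from -0.0543 to 0.214, Erf from -0.29 to 0.40, Etv3 from -1.10 to 0.14, Etv6 from -0.12 to 0.0739, Gabpa from -0.12 to 0.23 and Spi1 from -2.06 to 0.27.

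No paired analysis was possible because the labels give no replicate numbers, the groups share no mouse number, and libraries were numbered in accession order only. Groups of 6 and 3 libraries leave wide intervals, and reads at single-digit CPM limit Spdef, Fli1 and Spib.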
